A study of Caenorhabditis elegans with 6 samples.

Results

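Neuropeptide genes that do not encode FMRFamide-like peptides were followed in adult *C. elegans* fed RNAi against *bcat-1*, the branched-chain amino acid transferase gene. They were taken as all protein-coding genes of the deposited table named *nlp* with a number, without *nlp-27* to *nlp-34*, plus *pdf-1*, *pdf-2*, *ntc-1* and *snet-1*. This gave 39 of the 46589 genes in the table. The 8 genes *nlp-27* to *nlp-34*, known for antimicrobial peptides of the skin, were not included. The second pigment dispersing factor gene, *pdf-2*, is listed in the table under its older name *nlp-37* and is called *nlp-37* here.

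RNA came from whole wild-type adults (strain Bristol N2) that were 5 days past L4, the last larval stage. There were 6 libraries, of which 3 carried the label control and 3 the label bcat-1 RNAi, called RNAi-labelled here. In feeding RNAi worms eat *E. coli* bacteria that carry double-stranded RNA matching a gene. Feeding began in young adults, and progeny were washed away daily, as the study's methods state. The labels say nothing of what the control bacteria carried, and they name no culture, so the replicate numbers used here are names only and p-values measure the spread between libraries, which may be technical.

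Neuropeptides are cut from longer precursor proteins, packed into dense-core vesicles and released to act on G protein-coupled receptors. In *C. elegans* they are made mostly by neurons, with some made in the intestine and other tissues, and they adjust locomotion, feeding, egg laying, sleep and defecation. Whole animals were sequenced, where fewer cells of a type cannot be told apart from less RNA per cell.

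The libraries held 32784443 to 44137496 counted reads, and 16391 genes had enough reads to be tested. Levels are given as TMM-scaled counts for every 1e6 counted reads (CPM), as mean ± SD over 3 libraries. Levels of different genes are compared only as RPKM, which divide by exon length and by the mapped reads of the library. Differences are given as the log2 fold change from control to RNAi-labelled libraries with its standard error (SE), and a gene was called higher or lower at an adjusted p under 0.05 in edgeR's quasi-likelihood test across all tested genes. The targeted gene did not follow the label. Transcripts of *bcat-1* stood at 135.1, 135.3 and 162.2 CPM in the controls and at 223.1, 102.1 and 287.2 CPM in the RNAi-labelled libraries. The log2 difference was 0.50 ± 0.30 (SE, adjusted p = 0.169, edgeR), so the groups are named here by their labels.

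Most of the neuropeptide genes were higher in the RNAi-labelled libraries. Of the 39 genes 36 had enough reads for the test, and of these 28 were higher (77.8%), 1 was lower (2.78%) and 7 were not called. Over all tested genes 36.0% were called higher and 25.6% lower. Higher calls were commoner at the level of these genes: among the 3107 tested genes between the quartiles of their mean level (2.02 to 8.80 CPM), 50.1% were called higher and 11.9% lower. In 27 of the 36 genes every RNAi-labelled library lay above every control, against 40.2% of all tested genes. In 1 gene they all lay below, and in 8 the groups overlapped. Groups were apart in either direction for 71.2% of all tested genes.

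The rises were moderate in size. The median log2 fold change of the 36 genes was 0.78 (quartiles 0.55 and 0.99), a 1.71-fold difference. It was 0.15 over all tested genes and 0.52 over the genes of similar level. Of the 28 genes called higher, 19 rose by less than 2-fold and 9 by more. These 9 of the 36 stand beside 24.3% of all tested genes that were at least 2-fold higher. The 28 rises lay between 1.42-fold and 4.48-fold. They include *nlp-25*, which had enough reads for the test only in the RNAi-labelled libraries.

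**Figure D1:**
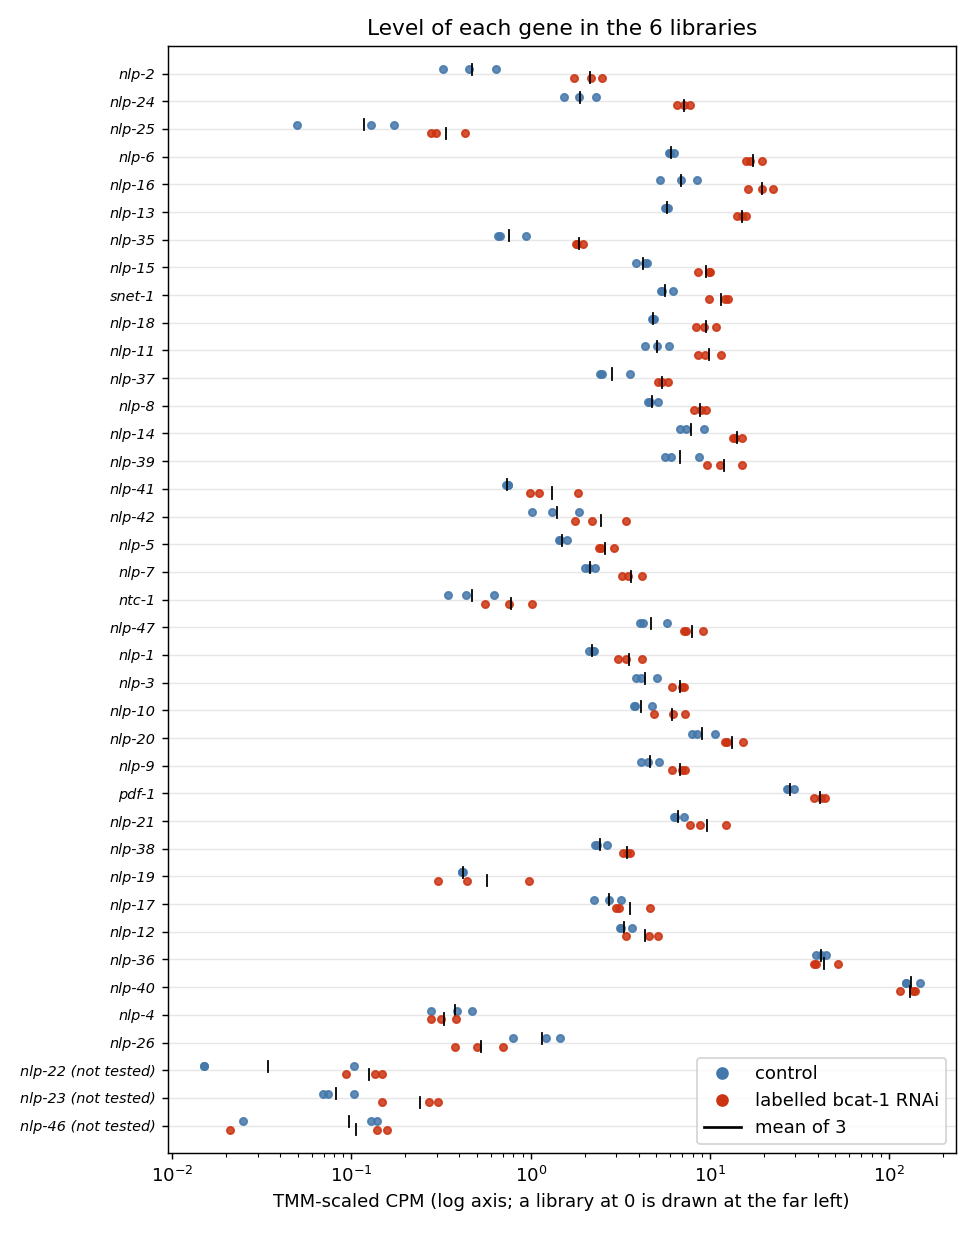
Level of each of the 39 genes in the 6 libraries, on a log axis of TMM-scaled CPM. Blue points are control libraries, red points are RNAi-labelled libraries, and black ticks are means of 3. For most genes the red points lie to the right of the blue ones, whereas for *nlp-40*, *nlp-36* and *nlp-4* they overlap and for *nlp-26* they lie to the left.

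The largest rise was that of *nlp-2* (T24D8.5, chromosome X, 2343947 to 2344766 on WBcel235), which encodes RPamide peptides. Its controls stood at 0.322, 0.450 and 0.644 CPM and the RNAi-labelled libraries at 2.16, 1.73 and 2.49 CPM. The groups were well apart, although few reads lay behind the controls, namely 13, 13 and 25. The log2 fold change was 2.16 ± 0.29 (SE, adjusted p = 0.000278, edgeR).

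Its relatives *nlp-22* and *nlp-23* lie beside *nlp-2* on the same strand and were too low for the test. In *C. elegans* larvae *nlp-22* promotes the quiescence of lethargus, the sleep-like state before each moult. No read of *nlp-22* was found in 2 controls, 4 were found in control 3, and 4, 7 and 6 in the RNAi-labelled libraries. For *nlp-23* the counts were 3, 2 and 4 against 13, 7 and 12. These counts do not overlap for *nlp-23* and overlap for *nlp-22*, and no fold change was tested. The remaining gene below the test, *nlp-46*, had 1, 4 and 5 reads in controls and 6, 1 and 7 in the others.

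The second largest rise was found for *nlp-24* (F35B12.7, chromosome V, 11616376 to 11616828), one of 3 genes of the YGGW family in the set. Its peptides are known to act through the opioid-like receptor NPR-17 in starved *C. elegans*. Levels were 2.30, 1.52 and 1.85 CPM in controls and 7.13, 7.76 and 6.53 CPM in the RNAi-labelled libraries, with a wide gap between the groups. The log2 fold change was 1.90 ± 0.19 (SE, adjusted p = 5.61e-05, edgeR). The receptor gene *npr-17* was not called, with 2.29 ± 0.60 CPM in controls and 2.06 ± 0.24 CPM in the other group (SD, n = 3).

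Of the other YGGW genes *nlp-25* rose and *nlp-26* fell, and they lie 5041 bases apart on chromosome V. *nlp-25* (Y43F8C.1) had only 2, 5 and 5 reads in controls and 12, 14 and 19 in the RNAi-labelled libraries. It passed the read filter only through the RNAi-labelled libraries, where it was high, so its call is not free of that selection. Its log2 fold change was 1.56 ± 0.45 (SE, adjusted p = 0.0140, edgeR). Without control 1, the lowest library, it was 1.14 with an adjusted p of 0.0625, in a range of 0.00524 to 0.0899 over all alternatives.

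In contrast, *nlp-26* (Y43F8C.2) stood at 1.21, 1.46 and 0.798 CPM in controls and at 0.697, 0.380 and 0.499 CPM in the RNAi-labelled libraries. The lowest control was close to the highest library of the other group. Its log2 fold change was −1.13 ± 0.32 (SE, adjusted p = 0.0127, edgeR), the only decrease called among the 36 tested neuropeptide genes. The call was lost without control 2, where the log2 value was −0.96 and the adjusted p 0.0555, in a range of 0.00352 to 0.0753 over all alternatives. *nlp-26* shares exon bases with *Y43F8C.3* on the other strand, which rose by a log2 value of 0.46. The kit does not mark strand, so reads of these overlapping genes cannot be told apart.

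The ratio between both neighbours shows the same contrast in other terms, from the same few reads of *nlp-25*. The log2 ratio of *nlp-25* to *nlp-26* was −3.44 ± 1.04 in controls and −0.63 ± 0.60 in the RNAi-labelled libraries (SD, n = 3, exact permutation p = 0.1, two-sided, which is the smallest that 3 against 3 libraries allow). The same was computed for 2 further neighbour pairs, and all 3 had an adjusted p of 0.1 in this exact permutation test.

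One of these pairs is *nlp-13* and *nlp-9*, which lie 14184 bases apart on chromosome V. *nlp-13* (E03D2.1, 4236418 to 4238056), an MSFamide-like gene, stood at 5.62, 5.72 and 5.85 CPM in controls and at 15.2, 14.2 and 15.8 CPM in the other group. The controls lay very close to each other and far below the rest. The log2 fold change was 1.39 ± 0.12 (SE, adjusted p = 3.28e-05, edgeR). *nlp-9* (E03D2.2), of the GGARAF family, rose by 0.56 ± 0.16 on the log2 scale (SE, adjusted p = 0.0128, edgeR). The log2 ratio of *nlp-13* to *nlp-9* thus moved from 0.31 ± 0.14 to 1.15 ± 0.05 (SD, n = 3, exact permutation p = 0.1). For *nlp-2* and *nlp-23*, which lie 987 bases apart, the log2 ratio was 2.49 ± 0.32 and 3.20 ± 0.36 (SD, n = 3, exact permutation p = 0.1), with few reads behind *nlp-23*.

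**Figure D2:**
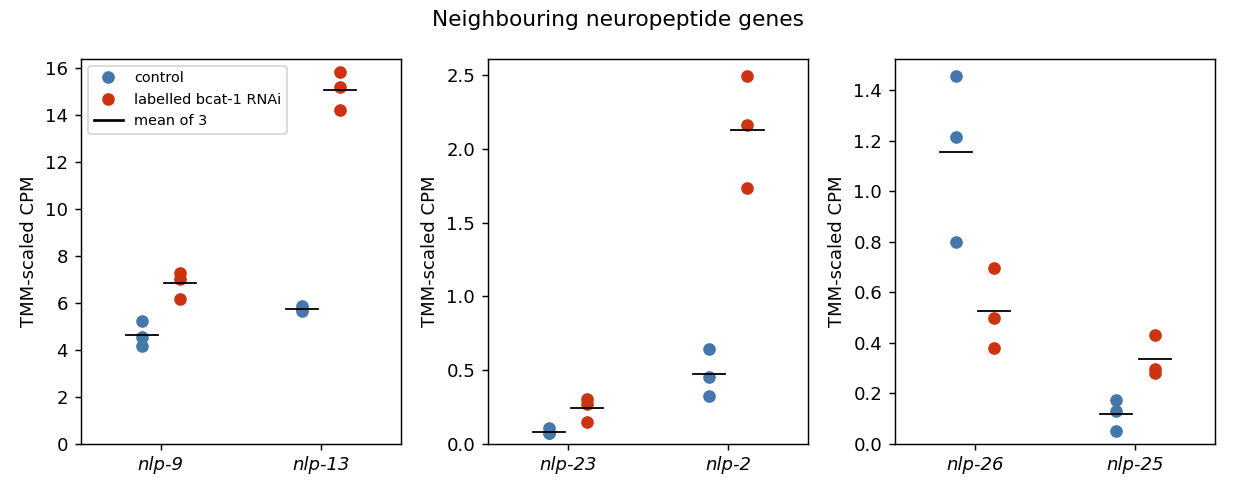
TMM-scaled CPM of 3 pairs of neighbouring neuropeptide genes in each library, on linear axes starting at 0, with blue points for controls, red points for RNAi-labelled libraries and black lines for means. *nlp-13* separates the groups more widely than *nlp-9*, *nlp-2* more widely than *nlp-23*, and *nlp-26* and *nlp-25* move in opposite directions.

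Other rises of more than 2-fold were spread over several peptide families. *nlp-6* (T23E7.4, chromosome X, 17662446 to 17665216) encodes MGxxxFG peptides. Its controls stood at 6.29, 5.96 and 5.92 CPM and the RNAi-labelled libraries at 16.8, 15.9 and 19.6 CPM. No library came near those of the other group, and the log2 fold change was 1.52 ± 0.13 (SE, adjusted p = 2.995e-05, edgeR).

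*nlp-16* (T13A10.5, chromosome IV, 6255049 to 6259832) varied more within the groups. It stood at 8.42, 6.895 and 5.25 CPM in controls and at 19.6, 22.5 and 16.3 CPM in the other group. The spread within each group was small beside the gap between them, and the log2 fold change was 1.51 ± 0.19 (SE, adjusted p = 0.000239, edgeR). *nlp-16* had the longest precursor of the set in the annotation, with 326 residues, whereas the median of the 39 genes was 102 residues.

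For *nlp-35* (C33A12.2, chromosome IV, 9518367 to 9518926) controls stood at 0.941, 0.658 and 0.670 CPM and the other group at 1.95, 1.80 and 1.81 CPM. Again the groups did not overlap, and the log2 fold change was 1.28 ± 0.22 (SE, adjusted p = 0.00119, edgeR). The gene shares exon bases with *C33A12.19* on the other strand, which itself rose by a log2 value of 0.56. *C33A12.19* had the higher level, at 4.69 CPM in controls and 6.92 CPM in the other group, so the rise of *nlp-35* is uncertain. Overlap on the other strand also applies to *nlp-24*, whose partner *glb-15* rose by 1.42 but had a lower level, at 0.357 and 0.955 CPM.

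Among the orcokinin-like genes all 4 rose. Orcokinins are peptides first described in crayfish. *nlp-15* (CC4.2, chromosome I) led with 3.86, 4.37 and 4.46 CPM in controls and 9.92, 8.62 and 9.998 CPM in the other group, clearly apart. Its log2 fold change was 1.17 ± 0.15 (SE, adjusted p = 0.000187, edgeR). *nlp-8* and *nlp-14*, both of which take part in stress-induced sleep of *C. elegans*, rose by 0.89 and 0.85 on the log2 scale. *nlp-3*, which promotes egg laying from the HSN neurons, rose by 0.64.

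The MSFamide-like genes rose likewise in all 3 cases. Beside *nlp-13* these were *nlp-7*, which inhibits egg laying, with a log2 value of 0.76, and *nlp-1*, released from the AWC olfactory neurons, with 0.70. *npr-11*, the receptor gene for *nlp-1* peptides, was not called at 0.389 ± 0.135 CPM in controls and 0.560 ± 0.096 CPM in the other group (SD, n = 3). Both FAFA genes rose, *nlp-18* by 0.98 and *nlp-20* by 0.56. Both GGARAF genes rose too, *nlp-9* by 0.56 and *nlp-21* by 0.54, and so did both MGxxxFG genes, *nlp-6* by 1.52 and *nlp-5* by 0.79.

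Peptides with relatives in vertebrates, and *nlp-38*, which was listed with them, gave a mixed picture. Of 4 tested genes 2 were called higher, namely *nlp-47*, related to gonadotropin-releasing hormone (0.75 ± 0.18, SE), and *nlp-38*, which encodes myoinhibitory peptides (0.50 ± 0.17, SE). *ntc-1*, which encodes the vasopressin- and oxytocin-related peptide nematocin, was not called. Its levels were 0.347, 0.624 and 0.438 CPM in controls and 0.558, 0.761 and 1.02 CPM in the RNAi-labelled libraries. The groups overlapped, and the log2 fold change was 0.76 ± 0.33 (SE, adjusted p = 0.0676, edgeR). Without RNAi 1 it was called, with a log2 value of 0.92 and an adjusted p of 0.0436, in a range of 0.0310 to 0.369 over all alternatives. *ntc-1* overlaps *tsp-14* on the other strand, and *tsp-14* went from 4.19 to 33.95 CPM, so the reads assigned to *ntc-1* are uncertain.

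*nlp-12*, which encodes cholecystokinin-like peptides and is made by the stretch-sensing DVA neuron, was also not called. It stood at 3.67, 3.19 and 3.14 CPM in controls and at 4.58, 3.40 and 5.12 CPM in the other group. RNAi 2 lay within the range of the controls, and the log2 fold change was 0.39 ± 0.19 (SE, adjusted p = 0.108, edgeR).

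The pigment dispersing factor genes, which promote roaming and other long-lasting locomotor states in *C. elegans*, both rose. *pdf-1* (T07E3.6, chromosome III, 6909590 to 6912481) stood at 29.6, 26.9 and 27.4 CPM in controls and at 41.4, 37.9 and 43.7 CPM in the RNAi-labelled libraries. This was a small and even rise, with the smallest standard error of the 36 genes, and the log2 fold change was 0.55 ± 0.10 (SE, adjusted p = 0.00177, edgeR). *nlp-37*, that is *pdf-2* (F48B9.4, chromosome X, 2163384 to 2164069), had 2.50, 2.43 and 3.58 CPM in controls and 5.11, 5.37 and 5.80 CPM in the other group. These groups were also apart, and its log2 fold change was 0.93 ± 0.19 (SE, adjusted p = 0.00292, edgeR).

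*snet-1* (C02F12.3, chromosome X, 3668086 to 3668942) encodes a peptide that restrains olfactory plasticity and is inactivated by the neprilysin NEP-2. Its levels were 5.38, 5.30 and 6.26 CPM in controls and 12.6, 9.91 and 12.2 CPM in the other group. All of the latter were well above the controls, and the log2 fold change was 1.03 ± 0.15 (SE, adjusted p = 0.000497, edgeR). *nep-2* itself was not called, with 6.19 ± 0.57 CPM and 6.41 ± 1.36 CPM (SD, n = 3).

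**Figure D3:**
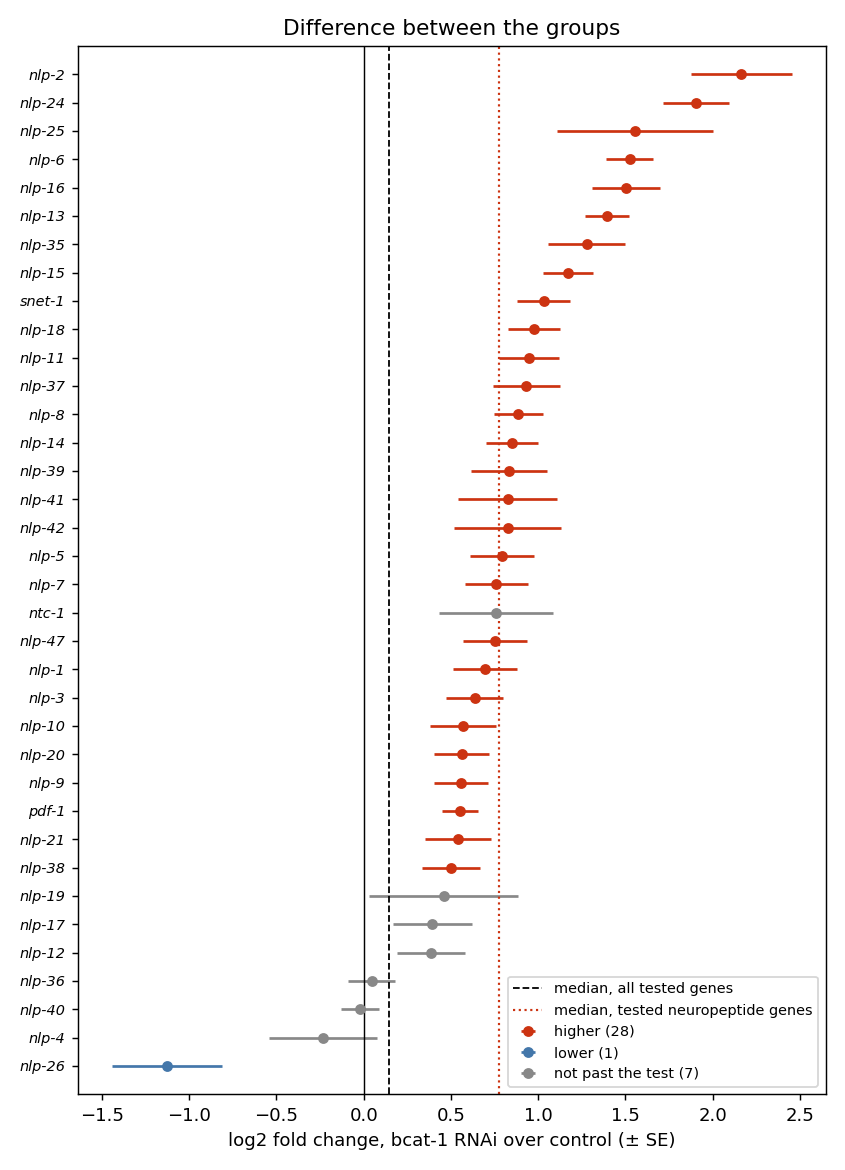
Log2 fold change of the 36 tested neuropeptide genes with bars of ± SE, where red marks the 28 called higher, blue the 1 called lower and grey the 7 not called. The dotted line, the median of these genes at 0.78, lies to the right of the dashed line, the median of all tested genes at 0.15.

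The most abundant neuropeptide genes per length were not those that rose most. *nlp-40* (Y74C9A.2, chromosome I) had the highest mean RPKM, 147, and is made in the intestine, from where it triggers the enteric muscle contraction of defecation through AEX-2 on neurons. Its levels were 148.0, 123.7 and 123.4 CPM in controls and 135.5, 115.2 and 138.6 CPM in the RNAi-labelled libraries. The groups overlapped, and the log2 fold change was −0.02 ± 0.11 (SE, adjusted p = 0.878, edgeR), with a sign that changed with the scaling.

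Next came *nlp-36* (B0464.3, chromosome III, 9488731 to 9489186), with a mean RPKM of 92.0. It had 39.3, 44.4 and 41.6 CPM in controls and 39.3, 37.9 and 52.1 CPM in the other group. Only RNAi 3 lay above the controls, and the log2 fold change was 0.05 ± 0.13 (SE, adjusted p = 0.779, edgeR), again with a sign that changed with the scaling. It overlaps *dars-1* on the other strand, a gene of 251.0 CPM in controls, so its level is uncertain.

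After *pdf-1*, with a mean RPKM of 30.4, followed *nlp-20* with 21.6 and *nlp-39* with 21.4. The levels of *nlp-20* (F45E4.8, chromosome IV, 7642054 to 7643071) were 10.6, 7.93 and 8.45 CPM in controls and 12.1, 12.5 and 15.3 CPM in the other group. Control 1 lay nearest to the other group. The log2 fold change of 0.56 ± 0.16 (SE, adjusted p = 0.0133, edgeR) lost its call without control 2, where it was 0.47 with an adjusted p of 0.0579, in a range of 0.00502 to 0.0579 over all alternatives.

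*nlp-39* (C54C8.9, chromosome I) stood at 5.60, 8.66 and 6.05 CPM in controls and at 11.4, 9.57 and 15.03 CPM in the other group. Control 2 came close to RNAi 2, and the log2 fold change was 0.83 ± 0.22 (SE, adjusted p = 0.00934, edgeR). The RPKM of *nlp-20* and *nlp-39* did not differ beyond their spread. The other 31 tested genes had mean RPKM values of 0.663 to 14.5.

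**Figure D4:**
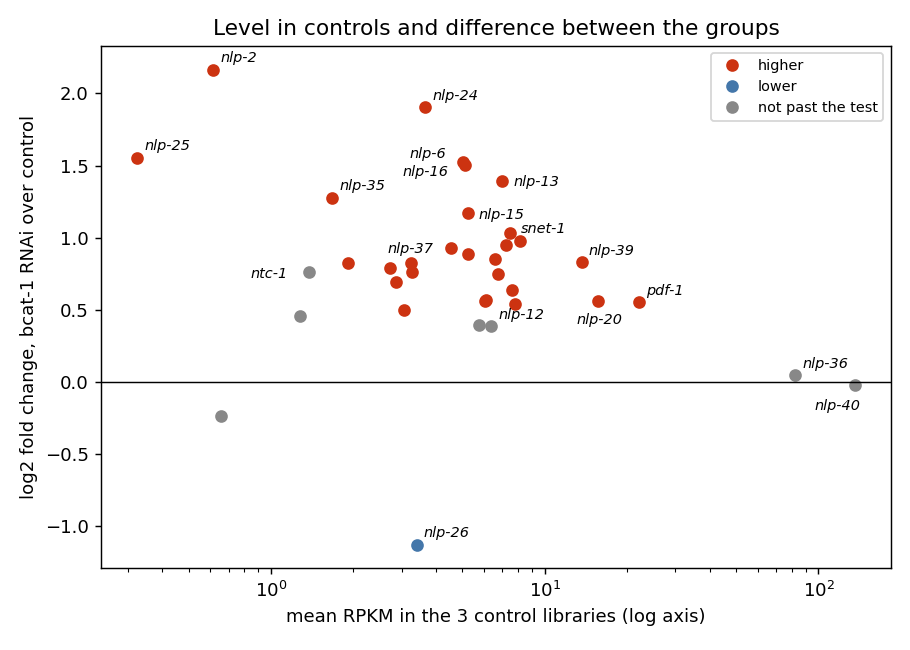
Log2 fold change of the 36 tested genes (vertical axis) against their mean RPKM in the 3 control libraries (horizontal log axis), with red for genes called higher, blue for lower and grey for not called. The most abundant genes, *nlp-40* and *nlp-36*, lie near 0, whereas the largest rises belong to genes of low or middle level, such as *nlp-2* and *nlp-24*.

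*nlp-40* alone made up 41.4% of the summed CPM of the 39 genes in controls. The sum went from 317.7 ± 11.4 CPM to 436.1 ± 40.7 CPM (SD, n = 3, exact permutation p = 0.1), a ratio of 1.37. Without *nlp-40* it went from 186.0 ± 3.38 CPM to 306.4 ± 29.5 CPM (SD, n = 3, exact permutation p = 0.1), a ratio of 1.65. In the RNAi-labelled libraries the share of *nlp-40* was 29.8%.

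The remaining genes called higher were *nlp-11* (0.95 on the log2 scale), *nlp-41* (0.83), *nlp-42* (0.83) and *nlp-10* (0.57). *nlp-42* was called although its groups overlapped, with 1.02 to 1.87 CPM in controls and 1.77 to 3.40 CPM in the other group. *nlp-41* overlaps *mog-4* on the other strand, which had 118.4 CPM in controls, beside 0.739 CPM for *nlp-41*, so its rise is uncertain. The calls of *nlp-41*, *nlp-42*, *nlp-10*, *nlp-9*, *nlp-21* and *nlp-38* were lost when certain single libraries were left out, control 1 among them for each of these genes. The highest adjusted p over all alternatives was 0.110 for *nlp-41*, 0.259 for *nlp-42*, 0.156 for *nlp-10*, 0.0644 for *nlp-9*, 0.135 for *nlp-21* and 0.132 for *nlp-38*. Overlap with a gene on the other strand also concerns *nlp-21*, *nlp-17* and *nlp-46*, so that 9 of the 39 genes are affected in all.

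Besides *ntc-1*, *nlp-12*, *nlp-40* and *nlp-36*, the genes not called were *nlp-19*, *nlp-17* and *nlp-4*. *nlp-19* was even in controls (0.412 to 0.421 CPM) and scattered in the other group (0.302 to 0.975 CPM). *nlp-17* lay at 2.27 to 3.19 CPM and 3.00 to 4.62 CPM, and *nlp-4* at 0.277 to 0.471 CPM and 0.279 to 0.385 CPM. For none of these does a missed threshold show that the levels were alike.

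By position, 12 of the 39 genes lie on the X chromosome. Of the 10 tested there 8 were called higher, and of the 26 tested on other chromosomes 20 were. Over all 36 tested neuropeptide genes the share was 77.8%, and over all tested genes it was 36.0%. Shares by chromosome over all tested genes were not computed, so these counts show no effect of position.

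The RNAi-labelled libraries were not even among themselves. RNAi 3 had the highest level of its group for 29 of the 36 tested genes and RNAi 2 the lowest for 26. With CPM that were not TMM-scaled these counts were 31 and 26. In the controls no library stood out so far, as control 3 was highest for 16 genes and control 1 for 12. Without RNAi 3 24 of the genes were called higher, without control 1 21 and without both 20. In the same fits 33.8%, 32.3% and 32.4% of all tested genes were called higher, beside 36.0% with all libraries.

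Genes that make and release neuropeptides were looked at next. Of 22 genes listed for these roles 19 were found in the table by symbol and all 19 were tested. Of these 12 were higher (63.2%), 2 lower (10.5%) and 5 not called, beside 36.0% higher and 25.6% lower over all tested genes. The median log2 fold change of the 19 genes was 0.76. The largest rise was that of *unc-31*, which encodes the CAPS protein needed for dense-core vesicle release, from 4.76 ± 0.64 to 20.7 ± 3.48 CPM (SD, n = 3). Its log2 fold change was 2.12 ± 0.17 (SE, adjusted p = 2.03e-05, edgeR). *ida-1*, a membrane protein of these vesicles, went from 20.2 ± 3.21 to 77.7 ± 9.90 CPM (SD, n = 3), a log2 value of 1.94. *ric-19* and *hid-1*, which help vesicle maturation, rose by 1.60 and 0.82, whereas *unc-108*, a Rab2 GTPase gene, was not called at 0.17 ± 0.09 (SE).

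Enzymes that cut and trim the precursors were also among the genes that rose. *egl-3*, the proprotein convertase that cuts most precursors, rose from 46.7 ± 5.80 to 90.8 ± 9.35 CPM (SD, n = 3), by 0.96 ± 0.12 on the log2 scale (SE, adjusted p = 0.000212, edgeR). *egl-21*, the carboxypeptidase that trims the cut ends, rose by 0.71 ± 0.12 (SE, adjusted p = 0.000908, edgeR). The convertase gene *kpc-1* rose by 1.29 and *sbt-1*, the chaperone of EGL-3, by 1.16. Of the amidating enzymes *pghm-1* rose by 1.39 and *pgal-1* by 0.76, whereas *pamn-1* was not called at −0.08 ± 0.19 (SE). *aex-5*, the convertase of the intestine and muscle, was not called at 0.33 ± 0.16 (SE).

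Both genes that were lower act elsewhere as well. *nep-1*, a neprilysin-type peptidase that can degrade peptides, went from 63.1 ± 6.15 to 28.4 ± 3.34 CPM (SD, n = 3), a log2 value of −1.15 ± 0.12 (SE, adjusted p = 7.56e-05, edgeR). *bli-4*, a convertase that also processes cuticle collagens, had a log2 value of −0.46.

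Receptors known for ligands of this kind had mean RPKM values of 0.0735 to 4.87, of which *pdfr-1* had the highest. Of 15 genes listed 14 were in the table and 12 were tested. Of these 7 were called higher (58.3%), 0 lower and 5 were not called, and their median log2 fold change was 0.77. The 7 include *ckr-1*, which passed the read filter mainly through the RNAi-labelled libraries. Over all tested genes 36.0% were called higher, and among those at 2.02 to 8.80 CPM 50.1% were. Most of the tested receptor genes lay below that range and *pdfr-1* above it, so that share does not match their level. With DESeq2 only 4 receptor genes were called higher, beside 29.4% of all tested genes. No receptor gene was lower at an unadjusted p under 0.05 in edgeR, and none was called lower by edgeR, limma or DESeq2 under any alternative. The largest rise was that of *sprr-1*, a receptor related to the insect sex peptide receptor, from 0.572 ± 0.202 to 1.72 ± 0.430 CPM (SD, n = 3), a log2 value of 1.61.

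Several ligand genes and their receptor genes can be set side by side. *pdfr-1*, the PDF receptor, rose by 0.76 ± 0.13 (SE, adjusted p = 0.00116, edgeR), and *pdf-1* and *nlp-37* by 0.55 and 0.93. *gnrr-1*, the receptor related to that of gonadotropin-releasing hormone, rose by 1.22, and *nlp-47* by 0.75. *ckr-1* and *ckr-2*, the cholecystokinin-like receptors, rose by 1.18 and 0.93, and *nlp-12* was not called at 0.39 ± 0.19 (SE). *ckr-1* had only 0.223, 0.173 and 0.335 CPM in controls and 0.511, 0.486 and 0.703 CPM in the other group. Its call is therefore not free of selection by the read filter. *ntr-1*, a nematocin receptor, rose by 0.78, and *ntc-1* had a similar value of 0.76 ± 0.33 (SE) that was not called. *aex-2*, the receptor for *nlp-40* peptides, rose by 0.77, from 0.360 ± 0.047 to 0.617 ± 0.121 CPM (SD, n = 3, adjusted p = 0.0369, edgeR). *nlp-40* itself was not called at −0.02 ± 0.11 (SE). No difference between a ligand gene and its receptor gene was tested, and a missed threshold does not set them apart.

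Markers of cell types and stages also moved between the groups. The counts for these lists stand beside 36.0% of all tested genes called higher and 25.6% called lower. Of 16 genes listed as neuronal markers 12 were higher and 1 lower, and their median log2 value was 1.30, beside 0.78 for the neuropeptide genes. Not every gene of this list is limited to neurons or found in all of them. *unc-13* rose by 2.42 and *unc-10* by 2.70, both of which encode proteins of the synaptic release site. Their summed level, in contrast, lay between 1216 and 1308 CPM in controls and between 977.2 and 1252 CPM in the other group, a ratio of 0.918 (exact permutation p = 0.4). The largest part of that sum came from the tubulin gene *tbb-1*, which fell from 774.7 to 485.6 CPM. The sum therefore does not show how the other genes of the list moved.

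Markers of larval moulting were higher in 12 of 14 cases and lower in none, beside 36.0% and 25.6% of all tested genes. Their sum went from 102.4–202.7 CPM to 909.8–1153 CPM, a ratio of 7.52. The moult-linked *nlp-22*, with 0, 0 and 4 reads in controls and 4, 7 and 6 in the other group, was too low for the test. All 14 oocyte and embryo markers were lower, with sums of 13438–16288 CPM and 6717–7999 CPM, a ratio of 0.518. Intestine markers were split with 4 higher and 4 lower of 10, and their sum, which consists mostly of vitellogenins, fell from 34947–45990 CPM to 18989–23218 CPM.

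Of the other lists, 5 of 5 tested glia markers were higher (sums of 45.6–58.1 and 78.2–93.7 CPM), as were 8 of 10 hypodermis markers (sums of 246.8–286.6 and 246.4–295.7 CPM). The hypodermis sum was mostly that of *lin-26*, at 213.2 and 179.7 CPM, which was not called. Body wall muscle markers were higher in 3 and lower in 4 of 10 cases (sums of 851.3–1083 and 1138–1312 CPM). The rise of the muscle sum came from *act-4*, which went from 281.6 to 641.6 CPM. Sperm markers were higher in 3 and lower in 0 of 5 tested cases (sums of 7.86–10.1 and 13.3–15.7 CPM). Low markers called higher, such as *bli-1*, *bli-2*, *rol-6* and *gsp-4*, passed the read filter mainly through the RNAi-labelled libraries. Their calls are not free of that selection. Over all tested genes the shares were 36.0% higher and 25.6% lower. Of all these markers only *mir-228* of the glia list, a microRNA gene, had no read in any library. The part of these shifts in the rise of the neuropeptide genes was not tested.

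**Figure D5:**
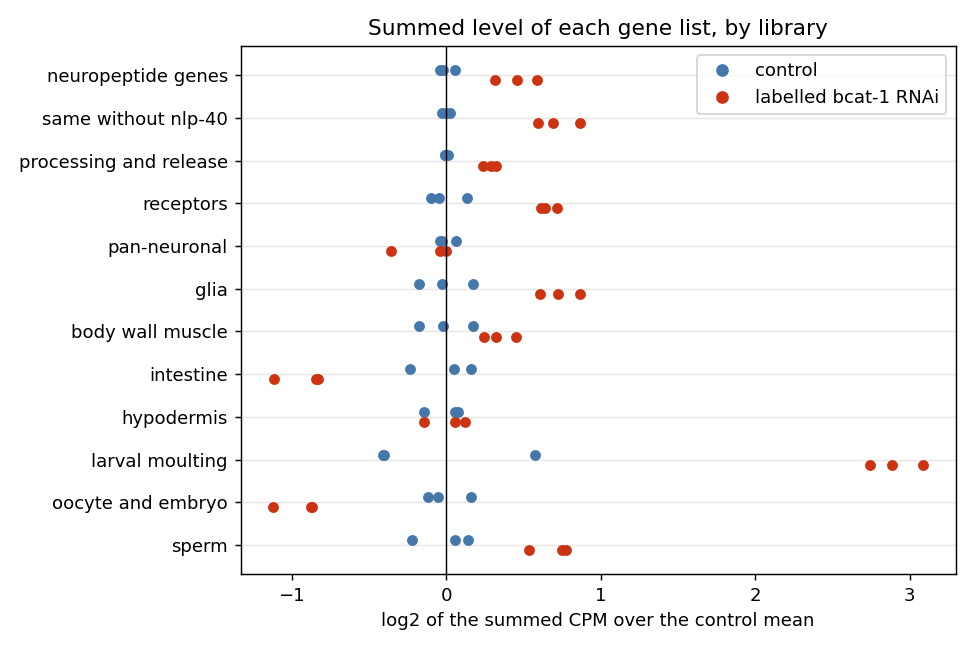
Summed CPM of the genes of each list in each library, as log2 of the ratio to the control mean, with blue points for controls and red points for RNAi-labelled libraries. The neuropeptide, processing and receptor lists lie to the right of 0 in the RNAi-labelled libraries, and larval moulting markers lie farthest to the right. Intestine and oocyte markers lie to the left, and the sums drawn as pan-neuronal and hypodermis overlap. The largest part of the sum drawn as pan-neuronal is that of *tbb-1*, and the hypodermis sum is mostly that of *lin-26*.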

How the data were processed

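Whole worms were lysed in QIAzol for total RNA. A TruSeq kit without strand marking and single reads on a HiSeq2500 were used for sequencing. The authors mapped reads to WBcel235 with TopHat2 2.0.6 and deposited counts of uniquely mapped reads per gene from featureCounts, its version and strand options being not given in the sources used here. CASAVA is listed too in the processing notes of the submitters. A second deposited table held RPKM values, which were checked to equal each count divided by exon length and library total (implied length whole within 0.01 base for 100% of genes). RPKM values carry no further scaling between libraries.

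From the deposited counts genes were filtered with filterByExpr and scaled by TMM. The filter asks for enough reads in as many libraries as a group holds, so a low gene could pass through its higher group alone. Each gene was tested with edgeR 4.0.16 (R 4.3.3), quasi-likelihood, two-sided, and the model held the group and no other term. Benjamini-Hochberg adjustment ran over all 16391 tested genes. The prior count of log2 fold changes was 0.125. Their SE was computed as the absolute log2 fold change divided by the square root of the F statistic of this test. Alternatives used other scalings and filters, DESeq2 1.42.0, limma 3.58.1 on voom values and on log2 RPKM, and libraries left out. The test was checked on simulated data in which few genes were changed. It called 13.4% of genes changed 1.5-fold, 56.7% of those changed 2-fold and 95.5% of those changed 4-fold. Of unchanged genes it called 0.082%. Many more genes were called in the real libraries, so these shares do not carry over to them directly. No library pair of a group agreed within sampling noise (chi-square per degree of freedom at least 13.8). The precision of low genes is limited by their counts.

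The genes, lists and settings were chosen with earlier results of these data known. Values in every library were given for the 8 largest rises and 8 largest falls among called genes with groups apart (only 1 such fall existed), the 5 genes of highest mean RPKM and 8 fixed genes (*pdf-1*, *pdf-2*, *ntc-1*, *snet-1*, *nlp-12*, *nlp-40*, *nlp-24*, *nlp-22*). Positions, precursor lengths and overlaps came from Ensembl release 115 on WBcel235, matched by sequence name for all 39 genes. Gene models can differ from the older annotation the authors counted on.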

Additional observations from a re-analysis of the deposited data

How the results depend on the processing

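Counts of calls and fold changes of the named genes were recomputed under 17 alternatives, of which 16 gave a value for the median and for *nlp-25*, *nlp-26* and *ntc-1*. Neighbour ratios, summed levels and marker lists were not recomputed. The number of neuropeptide genes called higher lay between 20 and 31 (main value 28) and between 21 and 28 when 1 library was left out. Over all tested genes the share called higher lay between 22.6% without a filter and 44.8% with limma on log2(RPKM + 0.1). With 1 library left out it lay between 29.6% without control 2 and 34.3% without control 3. Of the 28 genes 19 were called higher in every alternative and 9 lost the call in some, namely *nlp-25*, *nlp-39*, *nlp-41*, *nlp-42*, *nlp-10*, *nlp-20*, *nlp-9*, *nlp-21* and *nlp-38*. Conversely *ntc-1*, *nlp-17* and *nlp-12* were called higher in some. The number called lower was 0 with a filter of 1 CPM in 3 libraries, which removed *nlp-26*, and 0 without control 1 and RNAi 3 together, and it lay between 0 and 1 when 1 library was left out. The median log2 fold change was 1.03 with library size as the only scaling, 0.997 with limma on log2(RPKM + 0.1) and 0.60 without control 1 and RNAi 3 together. The median of all tested genes, 0.15, was 0.40 with library size only, 0.37 with limma on log2(RPKM + 0.1) and 0.02 with DESeq2 size factors, and it was again 0.15 without control 1 and RNAi 3 together. The gap between both medians was 0.63 and lay between 0.18 without a filter and 0.85 with the filter of 1 CPM. With library size only 44.7% of all tested genes were called higher and 11.9% lower. Without control 1 and RNAi 3 together these shares were 32.4% and 25.5%.

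Of the processing and release genes 12 to 15 were called higher, and 1 was lower with library size only and with limma on log2(RPKM + 1) or log2(RPKM + 0.1). The number of receptor genes called higher was 4 with the filter of 1 CPM, with DESeq2, with calls made by both tools and without control 1 and RNAi 3 together. Of all tested genes these settings called 35.2%, 29.4%, 29.4% and 32.4% higher. Genes near 0 changed sign without being called. The log2 fold change of *nlp-40* was 0.12 with upper quartile scaling, 0.23 with library size only, 0.063 with the filter of 1 CPM, 0.23 with limma on either log2 RPKM value and 0.049 without control 1 and RNAi 3 together, and it lay between −0.082 and 0.055 when 1 library was left out. That of *nlp-36* was −0.083 with DESeq2 size factors and with DESeq2, −0.024 without a filter and −0.13 without control 1 and RNAi 3 together, and it lay between −0.091 and 0.10 when 1 library was left out. No paired analysis was possible because the labels give no replicate numbers shared by the groups.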
